A study of Rattus norvegicus with 10 samples.

Results

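The Notch receptors Notch1, Notch2 and Notch3, the ligands Jag1 and Jag2, and the target genes Hes1, Hey1, Hey2 and Heyl were followed in rat tendon-derived stem cells (TDSCs) under osteogenic induction. They were found by gene symbol in the deposited expression table, and all 9 were present among its 23051 genes. RNA was taken on day 3 from 5 libraries with 50 µM farnesol, a sesquiterpene alcohol related to the mevalonate route, and from 5 control libraries without it. Osteogenic induction was common to both groups, and the labels name no genotype, strain or age. The labels call the controls untreated in their titles and point to a vehicle in their library names, so the solvent of the controls is not settled by them. They number biological replicates but name no animal or culture behind each, and p-values here reflect only how much these samples spread, and that spread may be technical.

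Notch is a signalling route between touching cells. A ligand of the Jagged or Delta-like family on one cell binds a Notch receptor on its neighbour, ADAM proteases and gamma-secretase then cut the receptor, and the freed intracellular part joins the DNA-binding protein RBPJ and Mastermind-like coactivators in the nucleus. Direct targets include the Hes and Hey genes, which encode repressors of the basic helix-loop-helix class. In mesenchymal progenitors the route is known for restraining or steering osteoblast formation, and in vascular mural cells for keeping contractile genes on.

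Among the 9 genes Jag1 changed. It fell to 4.6 ± 0.249 FPKM in farnesol libraries, against 10.2 ± 0.881 FPKM in control libraries (FPKM, counts scaled to gene length and library total, mean ± SD, n = 5 each). Notch2, the receptor that held nearly all receptor reads, and Hes1, the highest of the 4 Hes and Hey genes followed, did not pass the test. Notch1 and Hey2 were at low levels and did not pass either, and Notch3, Jag2, Hey1 and Heyl were too low to test. In edgeR's quasi-likelihood test, with p-values adjusted by the Benjamini-Hochberg method, 1 of the 5 tested genes was lower at an adjusted p under 0.05 and none was higher, whereas 59.5% of all 12893 tested genes passed that threshold, 29.4% higher and 30.1% lower in farnesol. The median log2 fold change was -0.19 over the 5 tested genes and 0.01 over all tested genes. In this fit the share of tested genes here that passed lay below that background. It rests on 5 genes, Notch1 and Hey2 at low levels among them, and was not below in every fit. With each library's slope on gene length as a covariate 1 of the 5 passed, beside 7.57% of all tested genes. With a smooth trend on gene length removed 3 passed, beside 56.6%.

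The sequences before 3 of the genes are shown because Jag1 is the gene that changed, while Hes1 and Hey2 are the targets whose start regions hold the core letters bound by RBPJ. They are the 250 bases before the annotated start in RefSeq, build GRCr8, on the gene's own strand. An entry was there for 8 of the 9 genes, but not for the target Hey1, which was therefore not searched. The windows lie at chr3:144894884-144895133 on the minus strand for Jag1, at chr11:84213046-84213295 on the minus strand for Hes1 and at chr1:28640850-28641099 on the plus strand for Hey2. Capitals mark TGGGAA, the RBPJ core, or its reverse complement TTCCCA.
Jag1: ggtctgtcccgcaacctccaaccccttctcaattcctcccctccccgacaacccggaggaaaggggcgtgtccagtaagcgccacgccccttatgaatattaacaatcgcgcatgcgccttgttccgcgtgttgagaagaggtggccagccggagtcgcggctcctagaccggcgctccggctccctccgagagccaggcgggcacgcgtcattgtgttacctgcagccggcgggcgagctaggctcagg
Hes1: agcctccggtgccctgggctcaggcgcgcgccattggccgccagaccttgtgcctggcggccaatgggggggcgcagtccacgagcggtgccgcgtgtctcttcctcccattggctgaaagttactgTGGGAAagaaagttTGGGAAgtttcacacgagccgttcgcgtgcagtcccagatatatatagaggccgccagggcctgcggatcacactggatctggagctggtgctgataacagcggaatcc
Hey2: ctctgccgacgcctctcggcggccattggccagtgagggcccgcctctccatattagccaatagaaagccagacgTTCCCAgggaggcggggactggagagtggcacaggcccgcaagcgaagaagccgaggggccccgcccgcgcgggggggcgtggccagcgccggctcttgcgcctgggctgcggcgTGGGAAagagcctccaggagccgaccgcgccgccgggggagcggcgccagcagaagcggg
In Hes1 both matches ran forward, from 123 to 118 and from 109 to 104 bases before the start. Hey2 had 1 reverse match, from 175 to 170 bases, and 1 forward match, from 60 to 55 bases before the start. None of the other genes with an entry held the letters in this window, which says only that these letters were not there. Over 33469 such windows of RefSeq genes, 22.1% held TGGGAA on either strand at least once and 2.71% held it at least 2 times. CACNAG, the N box that Hes proteins bind and through which Hes1 represses its own gene in mouse, was searched on both strands as well, and no match to it overlapped a TGGGAA match. It occurred 4 times before Hes1, 4 times before Notch1 and 1 time before Notch3, and not in the windows of the other genes with an entry. Before Notch1 a forward match from 28 to 23 bases and a reverse match from 26 to 21 bases overlapped. Of all windows 37.2% held CACNAG at least once and 8.02% at least 2 times. A match is a description of letters, not a measured binding site.

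Depth was 41.8 to 47.1 M (mega) counts per library, so a listed 0 is compatible with at most 3 counts, which is 0.0637 to 0.0717 CPM (counts per M counts) depending on the library. Such limits cover counting error only. Libraries of one group also differed along 1 direction, here called the library axis, which held 36.8% of the variance within groups. Farnesol libraries scored from -0.074 to 59.9 on it and control libraries from -40.3 to 4.06, so the axis and the treatment partly run together. Gene length tilts with the treatment too, with a median log2 fold change of 0.32 in the shortest decile of tested genes and -0.31 in the longest. Of 8 tendon markers 7 were tested, 4 fell (Tnc, Dcn, Scx and Mkx) and none rose, beside 30.1% of all tested genes lower. The call of Mkx ended with the axis score or the length slope of each library as a covariate, and that of Dcn with the length slope. Fmod was lower with the axis score as a covariate (log2 fold change -0.29, adjusted p = 0.00726, edgeR). With a smooth trend on gene length removed, Col1a1 (0.34, adjusted p = 0.0017, edgeR) and Col1a2 (0.18, adjusted p = 0.00496, edgeR) were higher. By limma-voom with quality weights Fmod was lower (-0.20, adjusted p = 0.00584) and Col1a1 higher (0.07, adjusted p = 0.0293). Scx, a tendon transcription factor, was at 21.4 ± 4.34 CPM in farnesol and 35.3 ± 4.35 CPM in control, while Tnmd, a late tendon marker, had at most 1 count per library.

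Of the receptors Notch2 held nearly all reads. It lies on chromosome 2 from 185610589 to 185744088 on the plus strand, in build rn7 per the submitters' processing notes, as do all gene positions below. Its level was 12, 12.3, 11.7, 12.4 and 12.2 FPKM in farnesol replicates 1 to 5 and 13.7, 12.7, 11.5, 12.1 and 12.5 FPKM in control replicates 1 to 5. The farnesol libraries all lay inside the range of the control libraries, whose highest value was in replicate 1. The log2 fold change was -0.06 (standard error 0.05, 95% interval -0.179 to 0.0519, adjusted p = 0.322, edgeR), so the interval allows from 0.884 to 1.04 times the control level. With a smooth trend on gene length removed from each library Notch2 was higher instead (log2 fold change 0.30, adjusted p = 0.0011). In that fit 56.6% of all tested genes were called, and 3 of the 5 genes here, Jag1 and Hes1 lower and Notch2 higher.

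Notch1 (chromosome 3, 9278086 to 9323531, minus strand) was read 75, 47, 30, 60 and 42 times in farnesol replicates 1 to 5 and 61, 64, 47, 40 and 77 times in control replicates 1 to 5, or 0.12 ± 0.0428 FPKM in farnesol and 0.135 ± 0.0296 FPKM in control. The groups overlapped almost fully. Its log2 fold change of -0.19 had a standard error of 0.26 and a 95% interval from -0.759 to 0.376 (adjusted p = 0.549, edgeR), so the interval covers changes in either direction. Notch3 (chromosome 7, 11133706 to 11184025, minus strand), a receptor typical of mural cells, had 24, 1, 6, 0 and 1 counts in farnesol and 1, 0, 19, 8 and 2 counts in control, and was not tested. Farnesol replicate 1 and control replicate 3 held most of its reads, and the sums were 32 counts in farnesol and 30 counts in control. Notch2 made up 96.3% ± 0.792 of the summed FPKM of Notch1 to Notch4 in farnesol and 96.4% ± 0.348 in control (SD, n = 5 each), and 94.9% to 96.9% in any library.

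Among the 5 Jagged and Delta-like ligands Jag1 held nearly all reads. Jag1 (chromosome 3, 124406794 to 124442209, minus strand) encodes Jagged1, a membrane ligand of all these receptors. It was read 1088, 1233, 1239, 1107 and 1107 times in farnesol replicates 1 to 5 and 2782, 2693, 2053, 2480 and 2821 times in control replicates 1 to 5. In CPM, which divides by the scaled library size, this was 24, 27, 26.1, 26 and 25 in farnesol and 61.9, 59.6, 49.3, 56.4 and 60.3 in control. Each farnesol library lay below every control library, with a gap between the groups wider than the spread inside either. Groups that do not overlap were found for 40.7% of all tested genes. The log2 fold change was -1.17 (standard error 0.07, 95% interval -1.32 to -1.02, adjusted p = 1.37e-07, edgeR), or 2.25-fold lower, in 5 of 5 farnesol libraries. A fall of at least 1 on the log2 scale was called for 4.8% of the tested genes, and 460 of all tested genes (3.57%), Jag1 included, had a log2 fold change as low or lower. Within the decile of tested genes of like length (5092 to 6697 bp), where the median log2 fold change was -0.25, 70 of 1289 were as low or lower. In bulk RNA, fewer cells of a type and less RNA per cell cannot be told apart.

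**Figure D1:**
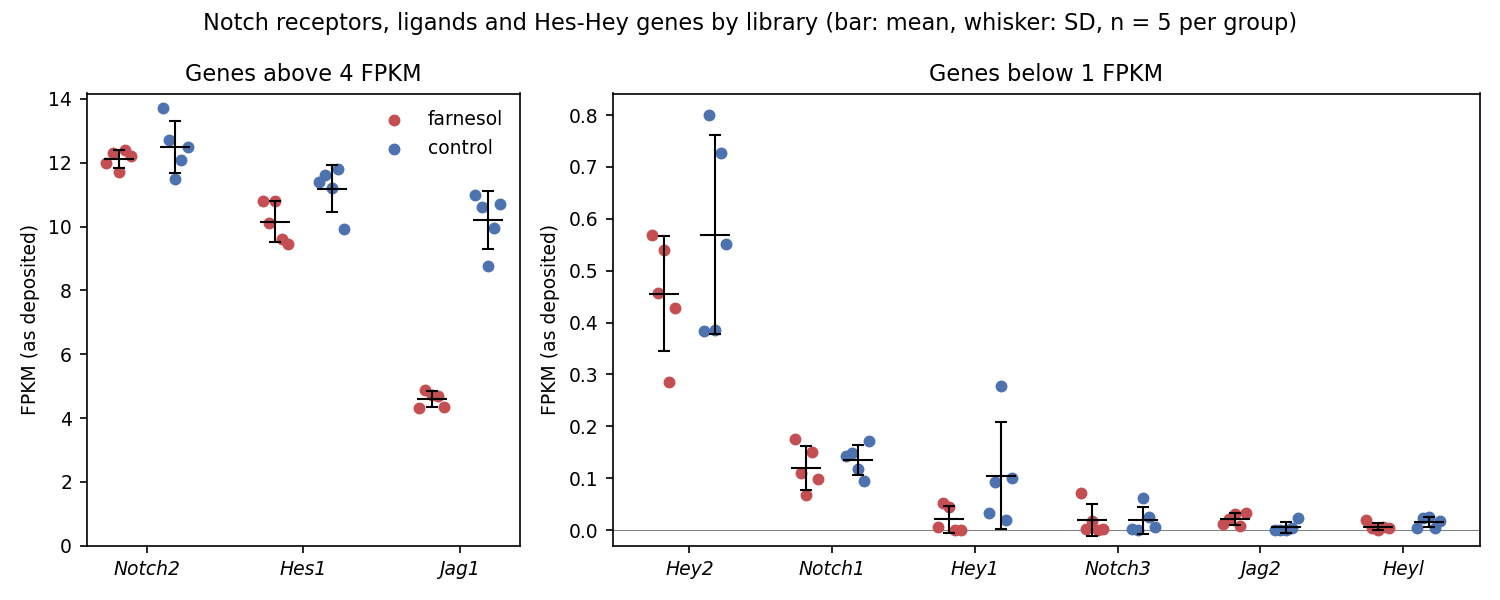
Deposited FPKM (linear axes) of the 9 genes in each library, with farnesol in red left of control in blue; bars are means and whiskers SD (n = 5 each). The farnesol points of Jag1, at 4.31 to 4.88, sit apart from its control points at 8.75 to 11, whereas the groups of every other gene overlap.

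The fall of Jag1 was set against the library axis, since control replicate 3 was both the lowest control library for Jag1 and the furthest along the axis. Its score was 4.06, beside -0.074 for farnesol replicate 3. At these neighbouring scores Jag1 was 26.1 CPM in farnesol replicate 3 and 49.3 CPM in control replicate 3. Among farnesol libraries, whose scores ran from -0.074 to 59.9, Jag1 stayed within 24 to 27 CPM. Among control libraries it was lower at each higher score, from 61.9 CPM at -40.3 to 49.3 CPM at 4.06. With each library's axis score as a covariate the estimate was -1 on the log2 scale (adjusted p = 3.82e-12, edgeR), and with each library's slope on gene length as a covariate it was -0.92 (adjusted p = 6.85e-08, edgeR). All genes called numbered 2656 of 12893 (20.6%) in the first of these fits and 976 (7.57%) in the second, and 5.82% of tested genes passed the same way in both and without a covariate, Jag1 among them. With the smooth length trend removed the log2 fold change of Jag1 was -0.90 (adjusted p = 6.72e-08, edgeR).

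**Figure D2:**
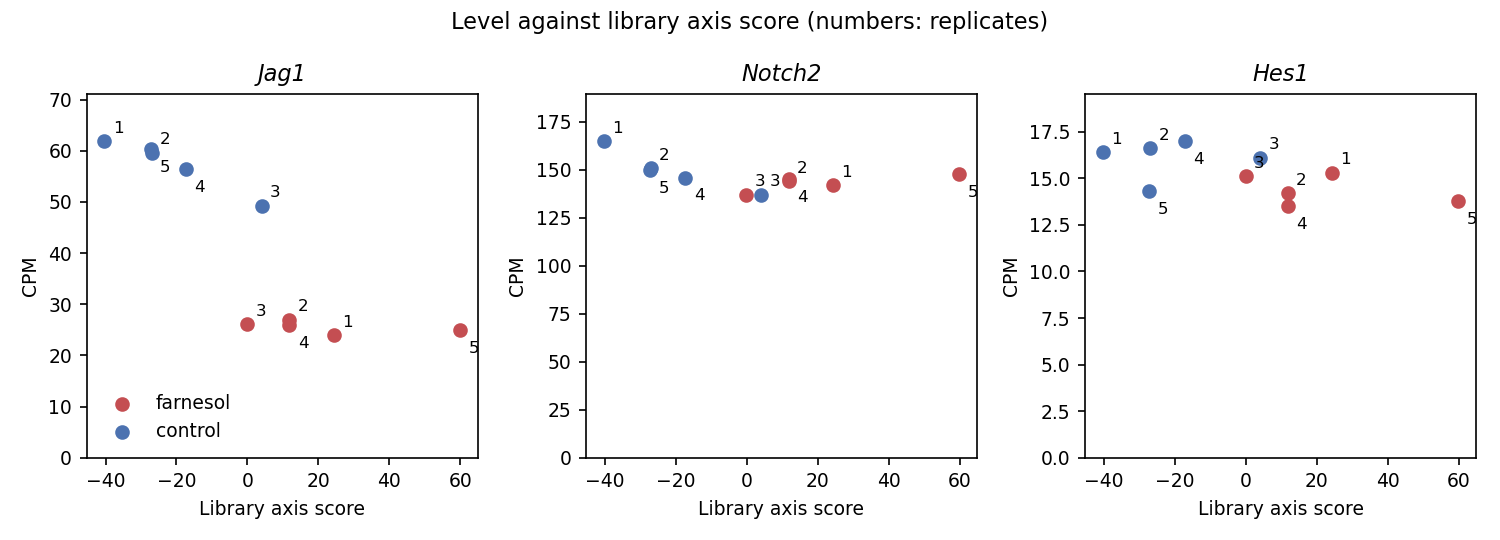
Levels of Jag1, Notch2 and Hes1 in CPM (linear axes from 0) against the library axis score, farnesol in red and control in blue, with replicate numbers beside the points. Farnesol replicate 3 (score -0.074) and control replicate 3 (score 4.06) lie side by side on the axis, with Jag1 at 26.1 CPM in the farnesol and 49.3 CPM in the control library. Among the control libraries Jag1 is lower at each higher score.

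Jag2 (chromosome 6, 131983056 to 132005818, minus strand), the second Jagged ligand, was near the floor, with 3, 5, 8, 2 and 8 counts in farnesol replicates 1 to 5 and 0, 0, 0, 1 and 6 counts in control replicates 1 to 5. The groups overlapped through control replicate 5, and in a fit without a filter on low counts the estimate was 1.80 on the log2 scale (standard error 0.97, adjusted p = 0.149 over 17515 genes, edgeR). Of the Delta-like ligands, Dll1 had 4 to 15 counts in farnesol and 0 to 13 in control libraries, Dll3 had 1 to 7 counts in farnesol and 0 to 4 in control, and Dll4 was listed at 0 in every library. Jag1 therefore held 97.7% ± 1.24 of the summed FPKM of the 5 Jagged and Delta-like ligands in farnesol and 99.4% ± 0.331 in control, while that sum was 4.7 FPKM in farnesol and 10.2 FPKM in control. Per length, the ratio of Jag1 to Notch2 was 0.358, 0.397, 0.404, 0.38 and 0.357 in farnesol replicates 1 to 5 and 0.798, 0.837, 0.761, 0.821 and 0.854 in control replicates 1 to 5. Ligand and main receptor transcripts were thus closer in level in every control library than in any farnesol library.

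Neither of the tested Hes and Hey targets passed. Hes1 (chromosome 11, 70705764 to 70708192, minus strand), a repressor whose RNA and protein turn over fast, was at 15.3, 14.2, 15.1, 13.5 and 13.8 CPM in farnesol replicates 1 to 5 and 16.4, 16.6, 16.1, 17 and 14.3 CPM in control replicates 1 to 5. Control replicates 1 to 4 lay above all farnesol libraries, and control replicate 5 lay among them. The log2 fold change was -0.16 (standard error 0.07, 95% interval -0.316 to -0.0011, adjusted p = 0.0762, edgeR), so the interval allows from 0.803 to 0.999 times the control level. Hes1 passed without control replicate 5 (log2 fold change -0.20, adjusted p = 0.0373) and with the length trend removed (-0.35, adjusted p = 0.00259), and did not with the axis (-0.13, adjusted p = 0.423) or the length slope (-0.13, adjusted p = 0.672) as a covariate. It is a short gene of 1429 bp, and the median log2 fold change of its decile of genes by length was 0.25.

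Hey2 (chromosome 1, 26822131 to 26832218, plus strand), a repressor of cardiovascular development, had 62, 50, 61, 29 and 47 counts in farnesol replicates 1 to 5 and 42, 88, 39, 78 and 63 counts in control replicates 1 to 5. Control libraries were both lower and higher than most farnesol libraries. Its log2 fold change of -0.34 (standard error 0.26, 95% interval -0.905 to 0.23, adjusted p = 0.284, edgeR) did not pass. Hey1 (chromosome 2, 93095498 to 93100312, plus strand), which Notch and bone morphogenetic proteins both induce, had 1, 8, 7, 0 and 0 counts in farnesol and 5, 14, 39, 3 and 16 counts in control. Control replicate 3 held 39 of the 77 control reads, and the groups overlapped. In the fit without a filter on low counts the estimate was -2.28 on the log2 scale (standard error 0.88, adjusted p = 0.0465, edgeR), beside 42.6% of 17515 genes called in that fit, 21.5% as lower. Heyl (chromosome 5, 135508160 to 135525152, plus strand), a Hey repressor known from vascular smooth muscle, had 4, 1, 0, 1 and 1 counts in farnesol and 1, 5, 5, 1 and 4 counts in control, and its estimate in that fit was -1.14 (standard error 0.87, adjusted p = 0.321, edgeR). Hes1 made up 95.5% ± 0.94 of the summed FPKM of Hes1, Hey1, Hey2 and Heyl in farnesol and 94.2% ± 1.39 in control. That sum leaves out Hes6, described below, which was at 12.7 ± 1.82 FPKM in farnesol and 7.73 ± 0.592 FPKM in control. Hes1 was at 10.1 ± 0.634 FPKM in farnesol and 11.2 ± 0.733 FPKM in control.

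Ordered by mean FPKM over all libraries, the genes ran Notch2 (12.3), Hes1 (10.7), Jag1 (7.39), Hey2 (0.513), Notch1 (0.128), Hey1 (0.0629), Notch3 (0.0191), Jag2 (0.0135) and Heyl (0.0111). In control the ranges of Notch2 and Hes1 overlapped, as did those of Hes1 and Jag1. In farnesol neither pair overlapped, where Jag1 reached at most 4.88 FPKM. From Hey1 downwards neighbours in this order overlapped in both groups.

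**Figure D3:**
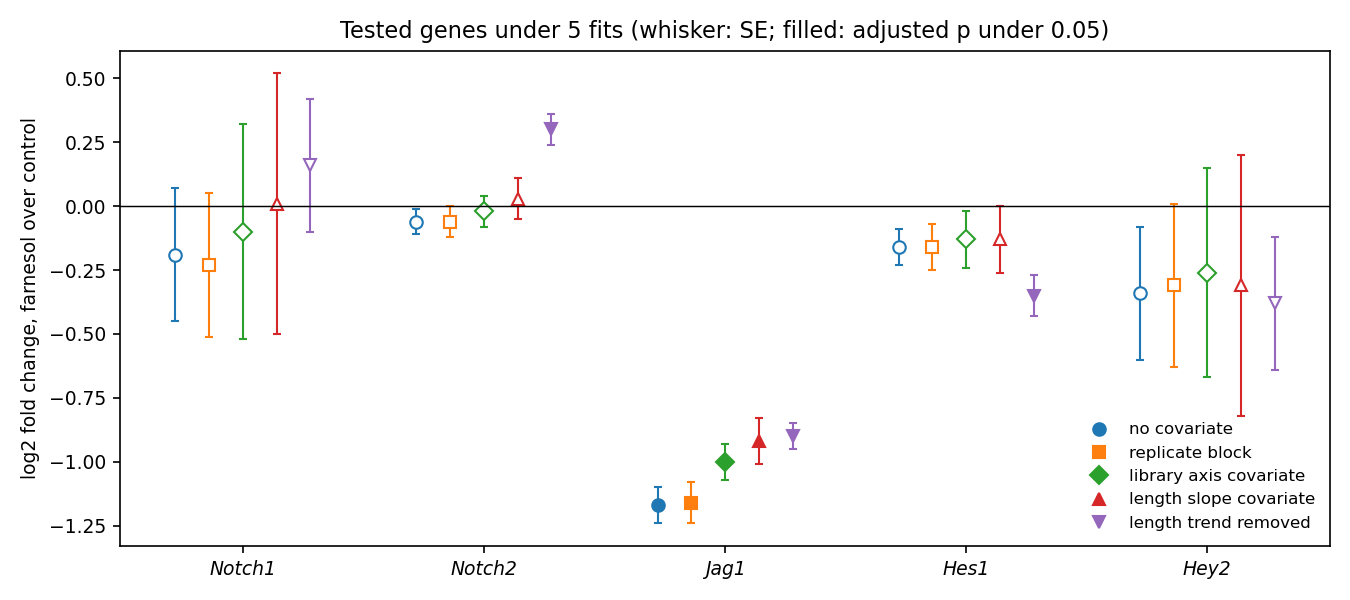
Log2 fold change, farnesol over control, of the 5 tested genes in the fit without a covariate and in 4 alternatives; whiskers are SE and filled symbols have an adjusted p under 0.05. Jag1 is filled and between -1.17 and -0.90 in every fit drawn, while Notch2 and Hes1 are filled with the length trend removed.

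The rest of the pathway was described from 59 further genes, of which 48 were tested, 14 rose, 20 fell and 14 did not pass, with a median log2 fold change of -0.08. Over all tested genes 29.4% rose and 30.1% fell. With the library axis as a covariate 2 of the 48 rose and 9 fell, where 20.6% of all tested genes were called, and with the length slope 0 rose and 3 fell, where 7.57% were called. Of other ligands and receptors, Notch4, a receptor of endothelium, had a log2 fold change of 0.03 (adjusted p = 0.875), and Dlk2, a non-canonical ligand, one of 0.51 (adjusted p = 0.0869), and neither passed, though Dlk2 did without control replicate 3 and by limma-voom with quality weights. Dner, a neural non-canonical ligand, was at 1.48 ± 0.15 FPKM in farnesol and 2.14 ± 0.224 FPKM in control and fell by 0.55 on the log2 scale (adjusted p = 0.000832), a call that ended with either covariate.

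Of 4 tested enzymes that put sugars on the receptor, 2 rose, 1 fell and 1 did not pass. Of all tested genes 29.4% rose and 30.1% fell. Rfng and Lfng, the radical and lunatic fringe glycosyltransferases, rose by a log2 fold change of 0.59 (adjusted p = 0.00231) and 0.53 (adjusted p = 0.0103), and Poglut1, which adds glucose, fell by 0.41 (adjusted p = 0.00127). All 3 calls ended with either covariate. Pofut1, which adds fucose, was at 73.3 ± 2.52 CPM in farnesol and 72.6 ± 2.87 CPM in control and did not pass, except with the length trend removed.

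Of 9 genes that cleave the receptor, 4 rose, 2 fell and 3 did not pass, beside 29.4% of all tested genes higher and 30.1% lower. Adam10, the protease of the ligand-dependent cut, was at 40.2 ± 13.5 CPM in farnesol and 88.3 ± 19.8 CPM in control, and the log2 fold change of -1.13 had a standard error of 0.22 (adjusted p = 0.00106, edgeR). Once the axis entered the fit it was -0.20 (adjusted p = 0.023), and with the length slope it was 0.07 (adjusted p = 0.826). Adam17 fell by 0.25 on the log2 scale (adjusted p = 0.00728), and the gamma-secretase subunits Aph1a and Psen2 rose by a log2 fold change of 0.29 (adjusted p = 0.00157) and 0.42 (adjusted p = 0.00347); these 3 calls ended with either covariate, and that of Adam17 also with the length trend removed.

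Of 7 genes of the nuclear complex, 5 fell and 2 did not pass, beside 30.1% of all tested genes lower. With the axis as a covariate 2 fell, beside 11.7% of all tested genes, and with the length slope 1, beside 4.55%. With the length trend removed 3 fell, beside 24.5%. The 5 that fell without a covariate lie in deciles 8 to 10 by gene length, whose median log2 fold changes were -0.16, -0.25 and -0.31. The 2 that did not pass were Maml3, in decile 9 (-0.07, adjusted p = 0.76, edgeR), and Snw1, in decile 4 (-0.17, adjusted p = 0.0981, edgeR). The cause of these falls was not tested. Rbpj, the DNA-binding partner of the cleaved receptor, was at 155 ± 16.3 CPM in farnesol and 202 ± 16.5 CPM in control (log2 fold change -0.39, adjusted p = 0.00123). Maml2, a Mastermind-like coactivator, fell by 0.84 on the log2 scale (adjusted p = 0.000356), Ep300, an acetyltransferase, by 0.60 (adjusted p = 0.0013), and Kat2b, another acetyltransferase, by 1.05 (adjusted p = 7.28e-05). The calls of Rbpj and Ep300 ended with either covariate, that of Rbpj also with the length trend removed, and that of Maml2 with the length slope. Of the 48 genes only Kat2b passed the same way without a covariate and with either one, in those fits with a log2 fold change of -0.57 and -0.44.

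Of 10 corepressor genes 3 rose, 4 fell and 3 did not pass, beside 29.4% of all tested genes higher and 30.1% lower. Spen, a corepressor that binds RBPJ, fell by 0.74 on the log2 scale (adjusted p = 0.000235), Ncor1 by 0.62 (adjusted p = 0.000378), Kdm5a, a histone demethylase, by 0.54 (adjusted p = 0.000433) and Tle4, a Groucho corepressor, by 0.57 (adjusted p = 0.00073). These 4 calls held with the axis and ended with the length slope as a covariate. Of 14 tested genes of endocytosis and ubiquitin ligation 4 rose, 7 fell and 3 did not pass, beside the same shares of all tested genes. Neurl1b, a ligase for ligands, fell by 1.56 on the log2 scale (adjusted p = 0.000452), at 0.714 ± 0.222 CPM in farnesol and 2.11 ± 0.641 CPM in control. Itch fell by 0.57 (adjusted p = 0.0015) and Nedd4 by 0.48 (adjusted p = 0.00206), both ligases acting on receptors, whereas Mib2, another ligase for ligands, rose by 0.41 (adjusted p = 0.00193). All 4 calls ended with either covariate, and that of Nedd4 also with the length trend removed. Of further ligases for ligands, Mib1 fell by 1.44 (adjusted p = 0.00255, edgeR) and Neurl1 rose by 0.82 (adjusted p = 0.03, edgeR). The calls of Mib1 and Neurl1 ended with either covariate too, and that of Neurl1 also under the replicate block.

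Among other Hes genes and Nrarp, a feedback inhibitor, Hes6 alone was tested, and it rose to 17.7 ± 2.88 CPM in farnesol, against 10.9 ± 0.824 CPM in control (log2 fold change 0.70, adjusted p = 0.000226, edgeR). Hes6 is known to counter Hes1 in mouse, and its call ended with the length slope. Nrarp had 2 to 13 counts in farnesol libraries and 1 to 14 in control libraries, and Hes2, Hes3 and Hes5 were at 0 in every farnesol library and at most 2 counts in a control library.

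**Figure D4:**
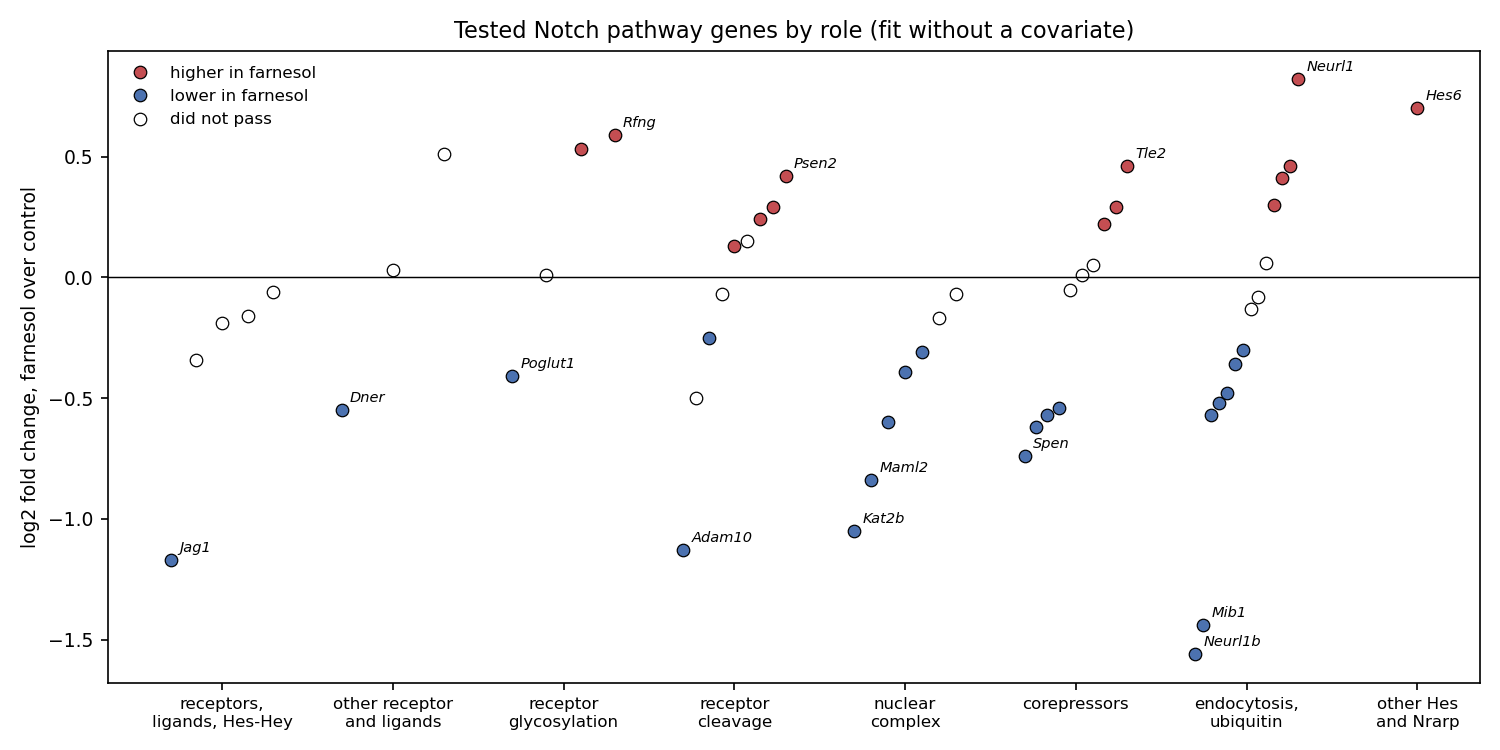
Log2 fold change, farnesol over control, of each tested gene of the Notch route in the fit without a covariate, grouped by role and ordered by value; red is higher, blue lower and white did not pass. The 5 tested receptors, ligands and Hes-Hey genes hold 1 call, Jag1, while the 7 genes of the nuclear complex hold 5 falls and no rise, which became 2 falls once the library axis was a covariate and 1 once the length slope was. Of all tested genes 30.1% were lower.

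Most markers of mural cells were lower in farnesol too. Of 10 such markers 9 were tested, 6 fell and none rose, beside 30.1% of all tested genes lower. Among them were Myh11 at 292 ± 10.4 CPM in farnesol and 857 ± 38.2 CPM in control, Mcam at 32.8 ± 0.86 CPM in farnesol and 78 ± 1.73 CPM in control, and Cnn1 at 147 ± 12.9 CPM in farnesol and 296 ± 18.1 CPM in control. Mylk, the myosin light chain kinase, was at 17.2 ± 3.6 CPM in farnesol and 60.4 ± 5.04 CPM in control. The summed level of the 10 markers was 8210 to 10700 CPM in farnesol libraries and 12400 to 14200 CPM in control libraries. The calls of Myh11, Mcam, Cnn1, Mylk and Acta2 held under every alternative, while Tagln (log2 fold change -0.23) lost its call under the replicate block and in 7 of the fits without 1 library. Pdgfrb, Cspg4 and Des did not pass. With the axis as a covariate Pdgfrb (-0.16, adjusted p = 0.00814, edgeR) and Cspg4 (-0.37, adjusted p = 9.91e-05, edgeR) were lower. With the length slope Cspg4 was lower (-0.41, adjusted p = 0.00421, edgeR) and Pdgfrb did not pass (-0.16, adjusted p = 0.15, edgeR). With the length trend removed Pdgfrb was higher instead (0.20, adjusted p = 0.0294, edgeR), and Cspg4 did not pass (0.25, adjusted p = 0.0971, edgeR). Rgs5, a pericyte marker, had at most 1 count in a library. Of 8 endothelial markers 7 were too low to test, Cdh5, Tie1 and Cldn5 were listed at 0 in all libraries, and the summed level was 0.109 to 0.822 CPM in farnesol and 0.48 to 0.912 CPM in control; Tek fell by 1.37 on the log2 scale (adjusted p = 0.0213), at 0.211 ± 0.163 CPM in farnesol and 0.551 ± 0.186 CPM in control. The call of Tek ended with the axis (-0.39, adjusted p = 0.736), with the length slope (-0.16, adjusted p = 0.948), and without farnesol replicate 1 or control replicate 1. Of 7 neural and glial markers, among them Sox10 listed at 0, 4 were tested. S100b and Tubb3 rose and Map2 fell, beside 29.4% of all tested genes higher and 30.1% lower. The summed level of the 7 markers was 444 to 522 CPM in farnesol and 291 to 346 CPM in control. It was nearly all S100b, at 477 ± 28.4 CPM in farnesol and 311 ± 19.7 CPM in control. The calls of Tubb3 and Map2 ended with either covariate, that of Tubb3 also under the replicate block, with the length trend removed and without control replicate 2 or 5. Of 6 immune markers 3 were tested. Cd14 and Cd68 rose, beside 29.4% of all tested genes higher, and the call of Cd68 ended with the length slope. Ptprc was listed at 0, and the 6 markers summed to 65.6 to 70 CPM in farnesol and 49.7 to 53.8 CPM in control. The part of these cell types in the fall of Jag1 was not tested.

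The genes whose profile over the 10 libraries was nearest to that of Jag1 were sought among 9458 tested genes with a mean of at least 5 CPM, by the root mean square difference of log2 CPM after each profile was centred on its own mean. The nearest were Jcad, which encodes a protein of endothelial junctions, Sulf1, an extracellular sulfatase of heparan sulfate, and Cd38, an enzyme that consumes NAD, at 0.07, 0.07 and 0.09 log2 units. Sulf1 was at 322 ± 28.8 CPM in farnesol and 711 ± 68.4 CPM in control, and Jcad at 31.6 ± 2.91 CPM in farnesol and 70.5 ± 6.21 CPM in control. Since the profile holds the difference between the groups, these genes have by construction a fall close to that of Jag1.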

How the data were processed

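Per the labels' protocols, total RNA was isolated by Trizol, and a NEBNext Ultra II RNA kit gave the libraries. Tools named in the submitters' processing notes, without their roles, are StringTie, DESeq, HTSeq 0.9.1 and HISAT2 2.0.5, and the build there is rn7. The authors deposited read counts per gene and library, and beside them FPKM values, per the file headers; dividing counts by FPKM and column total returns 1 length per gene, which served as gene length. Of 23052 rows 1 repeated another and was removed. The sources used here do not say whether counting used strand; 1 of the 9 genes, Notch3, overlaps another row of the table, on the other strand, that holds 0 CPM.

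The test was edgeR 4.0.16's quasi-likelihood test under R 4.3.3 on the deposited counts (filterByExpr, TMM, robust glmQLFit, glmQLFTest, group alone in the model, two-sided, Benjamini-Hochberg over 12893 genes at 0.05). The SE is the size of the log2 fold change over the square root of F, and 95% intervals use the fit's degrees of freedom. CPM use TMM-scaled library sizes; log2 CPM for the profiles have a prior count of 2. For the library axis, group means were taken off log2 CPM and the leading principal component gave a weight per gene. Libraries were then scored with these weights on log2 CPM less each gene's mean over all libraries. The scores, also as a covariate, therefore still hold the difference between the groups along this direction. The length slope regresses each library's deviation from the gene mean on log2 gene length; the smooth trend has 5 degrees of freedom. Alternatives also used limma 3.58.1, with a pseudocount of 0.1 for FPKM, and DESeq2 1.42.0. The edgeR test without a covariate was also run on simulated counts, which held no library axis and no tilt with gene length. The alternatives were not checked in this way.

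The genes, lists and covariates were chosen with earlier results of these data known. Named were all 9 genes, up to 4 genes of smallest p of each list, and the 3 genes nearest in profile to each changed member; of the cell type markers, up to 4 of smallest p. Other list genes named, such as Aph1b, Numbl, Mib1, Neurl1, Maml3, Snw1, Nrarp and the untested ligands, were chosen after their values were seen. Promoter sequences are RefSeq's, build GRCr8, which is not the files' build.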

Additional observations from a re-analysis of the deposited data

Results flagged for a closer look

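Single libraries stood apart from the other 4 of their group, by a gap larger than Dixon's 95% limit of 0.71 of the range, in 8 of the 66 groups looked at, where chance gives about 1 in 20. Of these, 3 are at counts near the floor: Notch3 at 0.529 CPM (24 counts) in farnesol replicate 1, Heyl at 0.0881 CPM (4 counts) in the same library, and Jag2 at 0.128 CPM (6 counts) in control replicate 5. In farnesol replicate 5, the library furthest along the library axis, Dlk2 was 2.1 CPM and Hes6 22.8 CPM, the nearest others being 1.27 and 16.9 CPM. Pofut1 was 69 CPM in farnesol replicate 3, Rfng 22.8 CPM in control replicate 3 and Spen 49.8 CPM in control replicate 1. Jag1, Notch2 and Hes1 had no such library.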

How the results depend on the processing

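The fall of Jag1 kept its direction and its call in all 21 alternatives, with a log2 fold change from -1.22 to -1.14 when 1 library was left out. Hey2 did not pass in any (-0.45 to -0.19 with 1 library left out), and was nearest to it by limma-voom with quality weights (-0.58, adjusted p = 0.0517). Notch1, at -0.36 to -0.04 with 1 library left out, turned to 0.01 under the length slope and to 0.16 with the length trend removed, without passing. Notch2, at -0.09 to -0.03, turned to 0.03 and 0.30 under the same 2 settings and passed in the second. Hes1, at -0.20 to -0.13, passed without control replicate 5 and, at -0.35, with the length trend removed. The number of the 9 genes called was 1, but 2 without a filter on low counts (Jag1 and Hey1), 3 with the length trend removed, and 1 to 2 with 1 library left out. All genes called numbered 7671, 6880 to 7904 with 1 library left out, 2656 with the axis and 976 under the length slope. Other pathway genes called numbered 34, 29 to 34 with 1 library left out, 11 with the axis and 3 under the length slope (Kat2b, Aph1b and Numbl). The cause of these shifts was not tested. By CPM in place of FPKM, Notch2 held 97.7% of receptor reads in either group, and Hes1 92.4% of the summed level of Hes1, Hey1, Hey2 and Heyl in farnesol and 89.9% in control. The replicate numbers did not pair the libraries: same-numbered deviations correlated from -0.401 to 0.0524, and none of 5 farnesol libraries matched its own number best. With the number as a replicate block Jag1 was -1.16, Notch2 -0.06, Notch1 -0.23, Hes1 -0.16 and Hey2 -0.31, 6409 genes were called, and no call among the 5 changed; 29 other pathway genes were called. Notch3, Jag2, Hey1 and Heyl were tested only without the filter, so their other alternatives were not run. Low counts limit statements on these 4.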
